A study of Mus musculus with 123 samples.

Results

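The genes described here are 34 mouse genes known to be imprinted, taken by their symbols from a table of 29022 genes that holds unique molecular identifier (UMI) counts, 1 column per embryo. All 34 were found, each in 1 row. They were picked by name, with earlier results of these data known. Of these, 23 are known as paternally expressed (Peg3, Usp29, Igf2, Snrpn, Plagl1, Dlk1, Peg10, Sgce, Mest, Kcnq1ot1, Impact, Nnat, Zdbf2, Ndn, Peg12, Zrsr1, Airn, Nap1l5, Mcts2, Inpp5f, Gab1, Sfmbt2 and Jade1) and 11 as maternally expressed (H19, Igf2r, Grb10, Meg3, Rian, Cdkn1c, Phlda2, Slc22a18, Ascl2, Gnas and H13, of which Grb10, Gnas and H13 only by their main or longest transcripts). The UMI counts tell neither the parental allele nor the transcript, so each level is the sum of both alleles and of all transcripts counted for the gene.

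RNA was sequenced from single morulae or inner cell masses (ICMs), 68 of an Oct4 (Pou5f1) line and 55 of a Sox2 line, to ask what each transcription factor does in the mouse embryo. Heterozygous Pou5f1 +/mKO2 or Sox2 +/EGFP males were mated with females whose floxed gene had been deleted by Zp3-Cre, which acts in the growing oocyte, so that KO embryos lacked the maternal and the zygotic gene, and Ctrl embryos lacked the maternal supply but kept an intact paternal allele. MWT embryos came from mothers with an intact gene. Stages were E2.75 for morulae, E3.75 for early and E4.5 for late ICMs. Morulae were taken whole, and ICMs were freed of the trophectoderm by immunosurgery after culture with 1 µM PD0325901, a MEK inhibitor that suppresses the primitive endoderm, from day 2.5. Stage, culture and isolation therefore changed together, and their parts in a stage difference cannot be told apart. There were 8 embryos in each group, except for Oct4 MWT with 7 morulae, 5 early ICMs and 8 late ICMs, and Sox2 MWT with 7 early ICMs alone. For the Oct4 MWT ICMs, the sample titles and source names disagreed on the stage, and the titles were used. The labels list no inhibitor for the Oct4 MWT early ICMs.

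Genomic imprinting silences a gene on the chromosome inherited from one parent. At most imprinted clusters the silencing traces to DNA methylation laid down in the egg or the sperm, and after fertilisation the zinc finger protein Zfp57 and its partner Trim28 keep that methylation while the rest of the genome loses it. Sfmbt2, Jade1 and Gab1 belong to another class, whose maternal allele is held silent in the early embryo by Polycomb histone methylation from the oocyte. Many imprinted genes act on growth and on the placenta, and several are first transcribed around implantation.

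Total UMIs ran from 525755 to 1344035 per embryo. In the Oct4 line Pou5f1 reached at most 4.73 CPM (counts per 1000000, here UMIs of a gene scaled to that total per embryo) in any KO embryo, whereas every Ctrl embryo had at least 13.4 CPM. In Sox2-KO morulae Sox2 was at 0 to 3.32 CPM against 2.91 to 34.2 CPM in Ctrl. In Sox2-KO ICMs its RNA was reduced but not absent. Early KO ICMs were at 7.74 to 36.4 CPM against 72.6 to 194 CPM in Ctrl. Late ones were at 8.09 to 29.3 CPM against 94.2 to 299 CPM. By immunostaining, the study reports loss of the Oct4 or Sox2 protein in embryos that carry the KO reporter. Epiblast markers (Nanog, Klf2, Klf4, Esrrb, Prdm14, Fgf4, Tdgf1, Utf1, Zfp42 and Tfcp2l1) summed to 2890 to 4593 CPM in Oct4 Ctrl early ICMs and 3282 to 4782 CPM in the late ones, and none of them was at 0 in these groups.

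Of the 8 genes called in a KO comparison, 7 had a promoter window in the table used, and 4 of these windows are shown, searched for the letters TGCCGC, which Zfp57 is known to bind when methylated. The letters lie in the windows of Plagl1, Mest, Meg3 and Grb10 (not shown) and not in those of Usp29, Sfmbt2 and Zrsr1 (the last 2 not shown). The windows are those of RefSeq for GRCm38.p6 and run from 250 bases before to 50 bases after an annotated start. Usp29, a ubiquitin-specific protease gene (ENSMUSG00000051527, chromosome 7, 6730578 to 6967219, plus strand, mm10), starts head to head with the zinc finger gene Peg3, and 263 bases of the Usp29 window (chr7:6730333-6730632) also lie in a Peg3 window. Plagl1 (ENSMUSG00000019817, chromosome 10, 13060504 to 13131694, plus strand) encodes a zinc finger transcription factor, and the window is chr10:13090582-13090881. Mest (ENSMUSG00000051855, chromosome 6, 30723547 to 30748465, plus strand) encodes a putative hydrolase, and the window is chr6:30737800-30738099. Meg3 (ENSMUSG00000021268, chromosome 12, 109541001 to 109571726, plus strand) makes a long non-coding RNA, and the window is chr12:109540746-109541045. The 4 windows are written 5′ to 3′ on the plus strand, and capitals mark the letters in either orientation (TGCCGC or GCGGCA).
Usp29: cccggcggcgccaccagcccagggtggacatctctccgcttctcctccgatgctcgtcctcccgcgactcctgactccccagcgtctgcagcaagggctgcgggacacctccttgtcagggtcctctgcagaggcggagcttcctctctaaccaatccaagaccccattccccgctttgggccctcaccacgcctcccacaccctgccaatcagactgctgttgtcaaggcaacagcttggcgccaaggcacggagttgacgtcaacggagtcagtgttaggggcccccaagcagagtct
Plagl1: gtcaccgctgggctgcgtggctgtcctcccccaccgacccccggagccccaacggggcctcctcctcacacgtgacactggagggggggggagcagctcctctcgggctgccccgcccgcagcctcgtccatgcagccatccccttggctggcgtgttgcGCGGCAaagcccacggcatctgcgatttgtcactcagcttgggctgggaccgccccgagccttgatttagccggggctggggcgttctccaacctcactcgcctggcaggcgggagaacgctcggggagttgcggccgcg
Mest: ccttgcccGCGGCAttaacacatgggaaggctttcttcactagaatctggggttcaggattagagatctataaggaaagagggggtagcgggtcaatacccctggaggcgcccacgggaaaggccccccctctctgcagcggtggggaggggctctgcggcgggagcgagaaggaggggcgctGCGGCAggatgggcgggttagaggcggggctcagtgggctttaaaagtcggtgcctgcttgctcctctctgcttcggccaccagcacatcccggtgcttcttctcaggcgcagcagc
Meg3: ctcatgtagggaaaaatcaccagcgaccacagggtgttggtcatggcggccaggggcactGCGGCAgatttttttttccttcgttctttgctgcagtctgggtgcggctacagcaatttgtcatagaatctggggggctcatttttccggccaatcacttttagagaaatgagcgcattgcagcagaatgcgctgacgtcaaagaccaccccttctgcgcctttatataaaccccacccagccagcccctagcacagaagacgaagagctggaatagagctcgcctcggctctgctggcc
Where a gene had several windows, the one with most matches is shown. Of the 34 genes, 29 had a window in the table, and 10 of these held the letters in at least 1 window (11 of their 48 windows), beside 3813 (11.6%) of all 32851 windows of that length. The other called genes were Sgce (ENSMUSG00000004631, chromosome 6, 4674350 to 4747207, minus strand), Sfmbt2 (ENSMUSG00000061186, chromosome 2, 10370510 to 10595253, plus strand), Grb10 (ENSMUSG00000020176, chromosome 11, 11930508 to 12038683, minus strand) and Zrsr1 (ENSMUSG00000044068, chromosome 11, 22972005 to 22976496, plus strand).

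A gene was called when its adjusted p in edgeR was under 0.05 and its log2 fold change was at least 1 in either direction, with 25 of the 34 genes passing the filter on detection. In Oct4-KO ICMs, 3 paternally expressed genes (Usp29, Sgce and Plagl1) were called higher than in Ctrl at both stages, and the maternally expressed Meg3 was called lower at both. Late Oct4-KO ICMs also had more Sfmbt2 and less Grb10 and Zrsr1. In Sox2-KO ICMs Plagl1 was called higher at both stages, Mest at the early stage and Sfmbt2 at the late stage, and no member was called lower, although Snrpn passed the adjusted p at the early stage with a smaller decrease. In early ICMs of the Oct4 line 3 members were called higher and 1 lower, where 4.77% of all 14053 genes tested were called higher and 6.11% lower. DESeq2 called 3 members there, with Plagl1 and Meg3 not among them. In late ICMs of the Oct4 line 4 were called higher and 3 lower, beside 9.25% and 8.85% of all genes, and DESeq2 called 8 members. In early ICMs of the Sox2 line 2 were called higher and 0 lower, beside 1.57% and 1.69% of all genes. There 6 members had an unadjusted p under 0.05, beside 2750 of all 14053 genes, and DESeq2 called 2 members. In late ICMs of the Sox2 line 2 were called higher and 0 lower, beside 3.34% and 3.61%. There 10 members had an unadjusted p under 0.05, beside 3712 of all 14053 genes, and DESeq2 called 3 members. Over the 25 members the median log2 fold change was 0.26 in early and -0.00 in late Oct4-KO ICMs, and 0.26 and -0.10 in the Sox2 line, while the medians of all genes tested lay between -0.01 and 0.01. By parental class, 3 of 16 tested paternally expressed genes were higher and 0 lower in early Oct4-KO ICMs (4 and 1 in late ones). Of 9 maternally expressed genes, 0 were higher and 1 lower (0 and 2 in late ones). The class medians of the log2 fold change were 0.04 (paternal) and 0.26 (maternal) in early Oct4-KO ICMs. In late ones they were 0.10 and -0.04. Mean summed levels went against the calls at both stages. They were lower in KO than in Ctrl embryos for the paternal class and higher for the maternal class, with overlapping ranges. Whether the classes differed was not tested. In the Sox2 line the called genes were paternally expressed in both ICM stages.

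**Figure D1:**
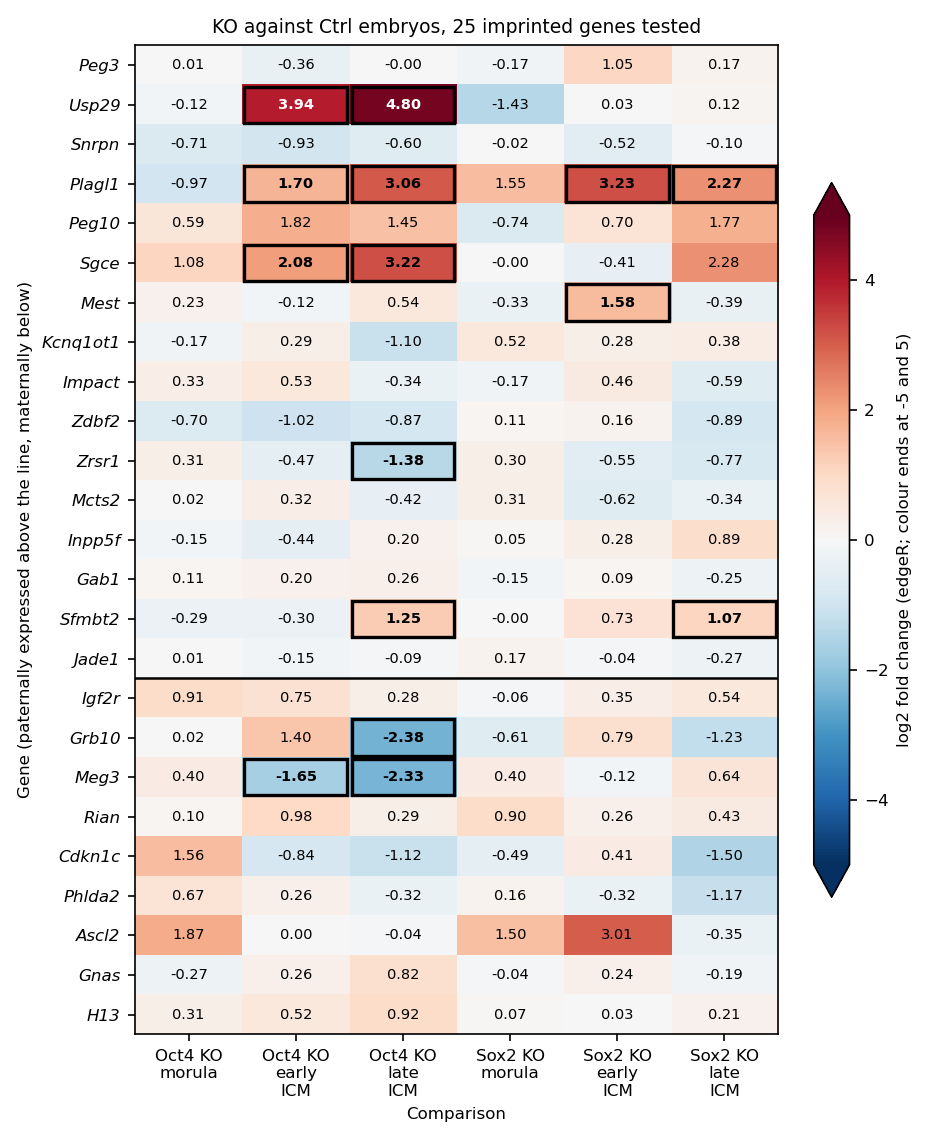
Log2 fold changes (edgeR) of KO against Ctrl embryos for the 25 imprinted genes tested, with 1 column for each line and stage, 8 embryos in each group and black frames around called genes. Framed cells lie in the ICM columns alone, and Plagl1 is framed in all 4 of them, from 1.70 to 3.23.

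Usp29 was found in the morulae of every group and, among the ICMs, mainly in those of Oct4-KO embryos. In early ICMs of the Oct4 line it reached 0, 3.61 and 9.71 CPM (lowest, median and highest) in KO embryos, with 29 UMIs in 7 of 8 embryos, and 1 UMI was counted in all 8 Ctrl embryos together. In 6 of the 8 KO embryos the level lay above the highest Ctrl embryo (1.13 CPM). The ratio of the summed levels was 28.4, with a counting interval (95%, exact) of 4.71 to 1160, and the log2 fold change was 3.94 ± 0.77 (SE, adjusted p = 5.26e-05). In late ICMs all 8 KO embryos had Usp29, at 1.16, 3.35 and 7.25 CPM, and no UMI was seen in the 8 Ctrl embryos. Against the limit that a count of 0 allows (3 UMIs over the group), Usp29 was at least 6.23-fold higher, and the fitted value of 4.80 (adjusted p = 4.66e-05) depends on the prior count. The late median over the members is the same with Usp29 at this bound. In Sox2-KO ICMs 1 UMI (early) and 2 UMIs (late) were counted, the same numbers as in Ctrl. The neighbour Peg3, which shares the start region printed above, had log2 fold changes of -0.36 ± 0.69 in early and -0.00 ± 0.48 in late Oct4-KO ICMs and passed the test in neither.

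Sgce, which encodes the membrane protein epsilon-sarcoglycan, was also higher in Oct4-KO ICMs. In early ICMs it was at 0, 8.55 and 12.8 CPM in KO embryos and at 0, 1.15 and 6.08 CPM in Ctrl embryos. Here 5 of 8 KO embryos lay above all Ctrl embryos and the ranges overlapped. The log2 fold change was 2.08 ± 0.56 (adjusted p = 0.00343). In the 4 embryos that share a number between the groups, the call was lost with the number as a block and kept without it. In late ICMs the KO embryos held 26 UMIs (0, 2.95 and 11.6 CPM) and the Ctrl embryos 2 UMIs, a ratio of 11.6 with a counting interval of 2.9 to 101 and a log2 fold change of 3.22 ± 0.81 (adjusted p = 0.00101). In late Sox2-KO ICMs the counts were 12 and 2 UMIs, a ratio of 6.38 (1.42 to 58.6), and the gene missed the threshold in edgeR (adjusted p = 0.0678) but was called with the late label set as a block (log2 fold change 2.23, adjusted p = 0.0479). In Oct4-KO morulae Sgce was at 15.1, 20.3 and 27.5 CPM against 4.12, 11.3 and 16.3 CPM in Ctrl, with 7 of 8 KO embryos above every Ctrl embryo, and it did not pass the test there (1.08 ± 0.39, adjusted p = 0.166). Peg10, a retrotransposon-derived gene needed in the placenta and the neighbour of Sgce in its cluster, had 16 UMIs in early Oct4-KO ICMs, all from 1 embryo, against 4 in Ctrl, and was called in no KO comparison.

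Plagl1 was the 1 member called in all 4 ICM comparisons. In early ICMs of the Oct4 line it was at 0, 8.55 and 34.3 CPM in KO embryos and at 0, 2.4 and 11.3 CPM in Ctrl embryos, with 2 KO embryos at 0 and 3 above every Ctrl embryo (log2 fold change 1.70 ± 0.61, adjusted p = 0.035, and 0.0573 in DESeq2). In late ICMs of the Oct4 line the KO embryos were at 0, 10.6 and 23.4 CPM and the Ctrl embryos at 0, 0.684 and 2.78 CPM. All KO embryos but 1 exceeded every Ctrl embryo there, with a log2 fold change of 3.06 ± 0.76 (adjusted p = 0.000788). In early ICMs of the Sox2 line the KO embryos were at 1.08, 7.9 and 25.3 CPM and the Ctrl embryos at 0, 0.552 and 4.36 CPM, with 6 of 8 KO embryos above all Ctrl embryos (3.23 ± 0.72, adjusted p = 0.00118). In late ICMs of the Sox2 line the values were 0, 7.07 and 15.9 CPM against 0, 0.542 and 4.73 CPM, with 5 of 8 KO embryos above all Ctrl embryos (2.27 ± 0.73, adjusted p = 0.0241). The effects in the Oct4 and Sox2 lines differed by -1.53 ± 0.96 in early and 0.79 ± 1.19 in late ICMs, and neither difference passed the test (adjusted p = 0.363 and 0.764).

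Sfmbt2, a Polycomb group gene needed in the trophoblast, was higher in late KO ICMs of both lines. In the Oct4 line it was at 21.7, 57.7 and 103 CPM in KO and at 13.8, 24.1 and 47.3 CPM in Ctrl embryos, with 6 of 8 KO embryos above every Ctrl embryo (log2 fold change 1.25 ± 0.29, adjusted p = 0.000376). In the Sox2 line the late values were 31.3, 52.9 and 72.9 CPM against 10.8, 26.2 and 35.8 CPM, with 7 of 8 KO embryos above every Ctrl embryo (1.07 ± 0.28, adjusted p = 0.00436). Without TMM scaling the value in the Sox2 line was 0.97, under the fold minimum. In early Oct4-KO ICMs the log2 fold change was -0.30 ± 0.27, and the Oct4-KO effect rose from early to late by 1.55 ± 0.40 (adjusted p = 0.0111). The gene hosts a large cluster of small RNAs, and 119 annotated genes overlap it on its own strand, so its counts may include theirs.

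Mest was called in early Sox2-KO ICMs alone, at 9.62, 17.2 and 39.1 CPM in KO and at 3.27, 6.43 and 9.96 CPM in Ctrl embryos. The ranges met at their ends and 6 of 8 KO embryos lay above every Ctrl embryo (1.58 ± 0.43, adjusted p = 0.0114). With all embryos thinned to the lowest total the value was 1.25 (adjusted p = 0.0982). In the 8 embryos that share a number between the groups it was 1.12 with the number as a block (adjusted p = 0.173) and 1.13 without it (0.201). In late Sox2-KO ICMs Mest was at 1.18, 10.2 and 16.5 CPM against 7.59, 11.3 and 24.7 CPM in Ctrl, and it did not pass the test there (-0.39 ± 0.44, adjusted p = 0.622). The Sox2 MWT early ICMs, at 5.07, 10 and 25.3 CPM, overlapped both ranges. In early Oct4-KO ICMs Mest changed by -0.12 ± 0.54, and the difference between the lines of -1.69 ± 0.70 did not pass the test in edgeR (adjusted p = 0.126). Mest overlaps Copg2 on the other strand.

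**Figure D2:**
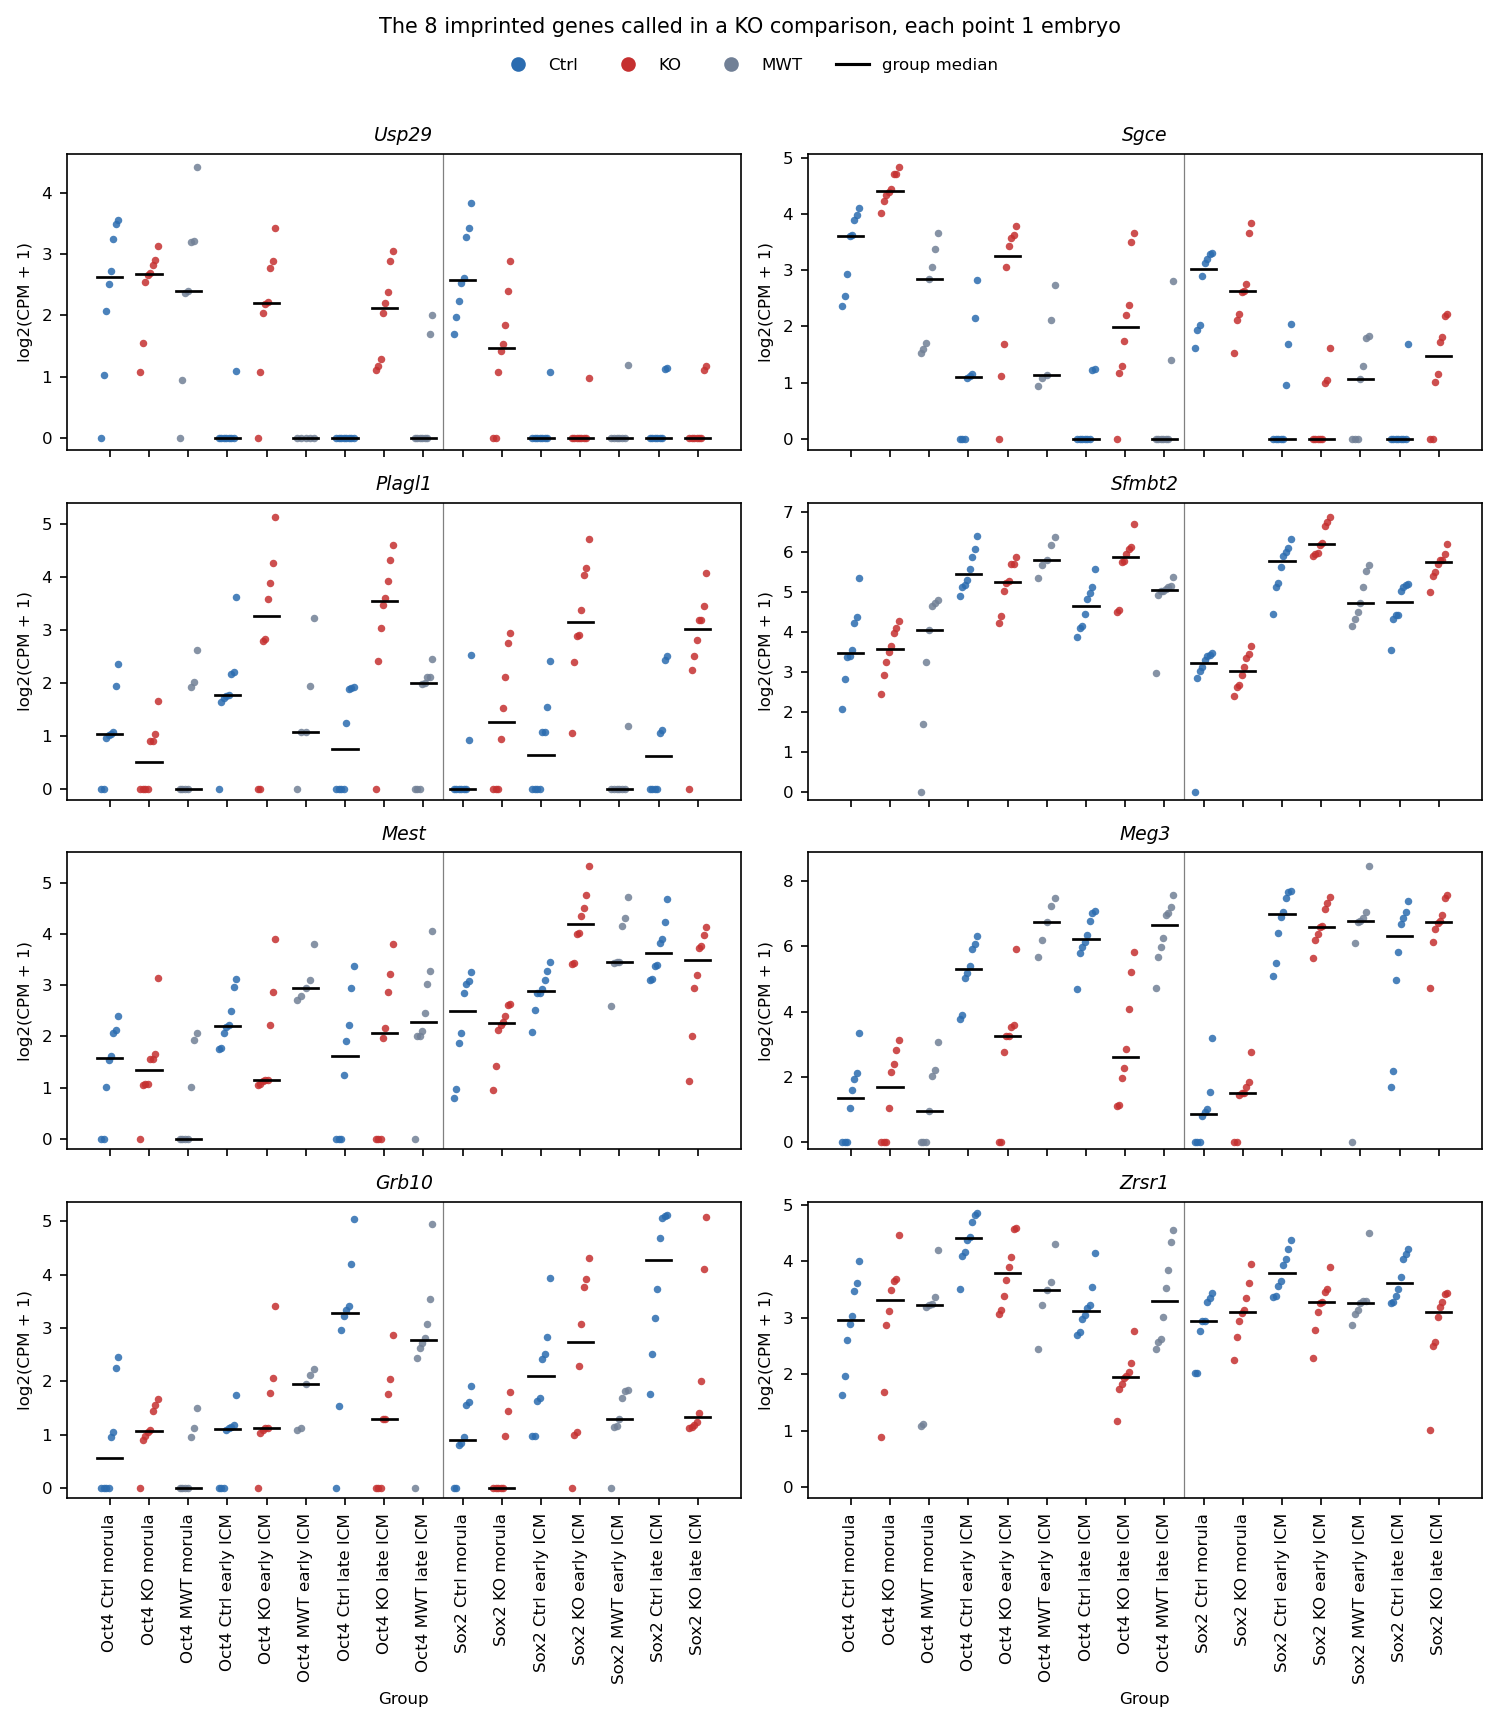
Levels of the 8 imprinted genes called in a KO comparison, as log2(CPM + 1) on the vertical axes with each point 1 embryo, coloured by Ctrl, KO or MWT, a black bar at each group median and the Oct4 line left of the vertical line. The median of Usp29 is 0 in every ICM group except the Oct4-KO ICMs, and Meg3 in Oct4-KO ICMs sits mostly below the Ctrl and MWT embryos of the same stage.

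Among paternally expressed genes that went down, Zrsr1, which encodes a splicing factor related to U2af1, was called in late Oct4-KO ICMs. It was at 1.26, 2.85 and 5.8 CPM in KO and at 5.5, 7.65 and 16.7 CPM in Ctrl embryos, and 7 of 8 KO embryos lay below every Ctrl embryo (log2 fold change -1.38 ± 0.41, adjusted p = 0.00548). In Sox2-KO ICMs Zrsr1 was at 3.87, 8.67 and 13.9 CPM against 9.34, 12.9 and 19.7 CPM at the early stage (-0.55 ± 0.31, adjusted p = 0.317) and at 1.01, 7.57 and 9.8 CPM against 8.61, 11.3 and 17.6 CPM at the late stage (-0.77 ± 0.33, adjusted p = 0.11). Neither passed the test, with 5 of 8 KO embryos below every Ctrl embryo at each stage. Zrsr1 lies within Commd1 on the opposite strand, whose level was 74.7 ± 20.6 (SD) CPM in the KO and 95.7 ± 17.1 CPM in the Ctrl embryos and which was not called. Snrpn, a spliceosomal protein gene of the Prader-Willi region, passed the adjusted p in 4 KO comparisons with a fold under the minimum. Its levels in early ICMs of the Oct4 line were 48.9, 56.6 and 64.9 CPM in KO and 79, 124 and 129 CPM in Ctrl embryos, with no overlap (-0.93 ± 0.15, adjusted p = 1.22e-06). Its log2 fold changes were -0.71 ± 0.15 in Oct4-KO morulae (adjusted p = 0.00196), -0.60 ± 0.15 in late Oct4-KO ICMs (0.000795) and -0.52 ± 0.14 in early Sox2-KO ICMs (0.0128). In Sox2-KO morulae and late ICMs its values were -0.02 and -0.10. Snrpn shares its locus with Snurf on the same strand.

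Jade1, a subunit of a histone acetyltransferase complex, and Gab1, an adaptor of receptor tyrosine kinases, passed the test in no KO comparison. Group means in KO and Ctrl embryos ran from 30.6 to 196 CPM for Jade1, and its KO effects lay between -0.27 and 0.17. For Gab1 the group means ran from 47.7 to 68 CPM and the KO effects from -0.25 to 0.26. Impact, an inhibitor of the translational kinase Gcn2, had its highest group mean in Sox2 Ctrl morulae (54.2 ± 26.6 CPM) and KO effects between -0.59 and 0.53. None of these passed the adjusted p in a KO comparison. The same held for Peg3, Peg10, Kcnq1ot1, Zdbf2, Mcts2 and Inpp5f, although for Kcnq1ot1, the non-coding RNA that silences its cluster, late Oct4-KO ICMs had a log2 fold change of -1.10 ± 0.47 (adjusted p = 0.0635) and DESeq2 called it. Kcnq1ot1 lies within Kcnq1 on the opposite strand, and Kcnq1 had 0 UMIs in those 2 groups.

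Meg3 was the maternally expressed gene that fell in Oct4-KO ICMs at both stages. In early ICMs 2 KO embryos had no UMI, 5 had 5.85 to 11 CPM and replicate 5 had 59.1 CPM, while the Ctrl embryos were at 12.7, 38.2 and 78.2 CPM. All KO embryos but replicate 5 lay below every Ctrl embryo, and the log2 fold change was -1.65 ± 0.55 (adjusted p = 0.0218, and 0.0574 in DESeq2). Without replicate 5 it was -2.66. In the 2 KO and 2 Ctrl embryos that share a number the value was -0.45, which did not pass the test with the number as a block (adjusted p = 0.836) or without it (0.766). In late ICMs the KO embryos were at 1.16, 5.08 and 55.9 CPM and the Ctrl embryos at 24.8, 74.2 and 135 CPM. Here 6 of 8 KO embryos lay below every Ctrl embryo, and the other two (replicates 1-2 and 1-5, at 35.9 and 55.9 CPM) lay within the Ctrl range (-2.33 ± 0.54, adjusted p = 0.0003). In Sox2-KO ICMs the changes were -0.12 ± 0.42 and 0.64 ± 0.44, and in late ICMs the Oct4-KO effect was lower than the Sox2-KO effect by 2.98 ± 0.70 on the log2 scale (log2 difference -2.98, adjusted p = 0.00205).

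Rian, the non-coding RNA that lies downstream of Meg3 and hosts small nucleolar RNAs, was called at neither stage. In early Oct4-KO ICMs Rian was at 18.7, 23.7 and 36.6 CPM against 5.1, 12.8 and 21.5 CPM in Ctrl, with 5 of 8 KO embryos above every Ctrl embryo (log2 fold change 0.98 ± 0.33, adjusted p = 0.0254, just under the fold minimum). In late Oct4-KO ICMs its value was 0.29 ± 0.41. Mirg, the next non-coding RNA of the cluster, was called lower at both stages, with 4 against 17 UMIs in early and 7 against 26 UMIs in late ICMs (-1.82 at each, adjusted p = 0.0441 and 0.0133). The 2 early KO embryos with no Meg3 UMI held 18.7 and 21.1 CPM of Rian. Dlk1, the paternally expressed protein-coding gene of this cluster, had 9 UMIs over the embryos of every group together.

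Grb10, an adaptor that restrains insulin and growth factor signalling, was lower in late Oct4-KO ICMs, at 0, 1.45 and 6.31 CPM against 0, 8.72 and 32.1 CPM in Ctrl. Every KO embryo was under the median of the Ctrl embryos, but the ranges overlapped, with Ctrl replicates 1-6 and 2-1 at 0 and 1.9 CPM (-2.38 ± 0.72, adjusted p = 0.0062). In late Sox2-KO ICMs the median was 1.5 CPM against 18.5 CPM in Ctrl, and the fold of -1.23 ± 0.55 missed the threshold (adjusted p = 0.13), with replicate 2-6 at 33.1 CPM. In early ICMs the change in the Oct4 line was 1.40 ± 0.91, and the Oct4-KO effect fell by 3.78 on the log2 scale from early to late ICMs (-3.78 ± 1.18, adjusted p = 0.0434), a call lost after thinning (-3.03, adjusted p = 0.14) and with limma (-1.34, adjusted p = 0.0502).

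H13, a signal peptide peptidase gene, and Igf2r, the receptor that clears Igf2, were abundant maternally expressed genes with changes under the fold minimum. H13 was at 78, 86.1 and 123.2 CPM in late Oct4-KO ICMs and at 34.8, 49.1 and 68.3 CPM in Ctrl, with no overlap (0.92 ± 0.13, adjusted p = 1.19e-08), and it changed by 0.52 ± 0.13 in early ones (0.00144). Mcts2, the paternally expressed retrogene inside H13 on the same strand, went to 23.9 ± 7.29 CPM against 34.6 ± 13 CPM in late Oct4-KO ICMs and was not called. Igf2r was at 172, 339 and 478 CPM in Oct4-KO morulae against 146, 180 and 246 CPM in Ctrl, with 7 of 8 KO embryos above every Ctrl embryo (0.91 ± 0.20, adjusted p = 0.00398), and it changed by 0.75 ± 0.20 in early Oct4-KO ICMs (0.00352) and 0.28 ± 0.22 in late ones. Gnas, which encodes the stimulatory G protein alpha subunit, was at 230, 411 and 480 CPM in late Oct4-KO ICMs against 107, 230 and 462 CPM in Ctrl, with 2 of 8 KO embryos above every Ctrl embryo (0.82 ± 0.17, adjusted p = 4.40e-05). In late Sox2-KO ICMs Gnas changed by -0.19, and the difference between the lines was 1.01 ± 0.23 (adjusted p = 0.00193), or 0.99 without Sox2 Ctrl late ICM replicate 1-4.

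Cdkn1c, a cyclin-dependent kinase inhibitor, Phlda2, which restrains placental growth, and Ascl2, a trophoblast transcription factor, had few UMIs and were called in no KO comparison. Cdkn1c had 14 UMIs in late Sox2-KO ICMs against 47 in Ctrl, with each KO embryo under the Ctrl median (log2 fold change -1.5003 ± 0.60, adjusted p = 0.0815, called with the late label set as a block). Phlda2 had 23 against 61 UMIs in the same groups (adjusted p = 0.126). Ascl2 had 10 against 2 UMIs in Oct4-KO morulae, a ratio of 4.88 (counting interval 1.04 to 45.8), and 7 against 0 UMIs in early Sox2-KO ICMs, at least 2.35-fold higher against the 3-UMI limit, with those 7 UMIs in 2 embryos.

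The late ICM labels carry a set number, 1 or 2, before the embryo number, and what the sets are is not stated. Within set 1 and set 2 of the Oct4 line 3 and 4 members were called in late ICMs, beside 12.7% and 10.5% of the genes tested within each set. Usp29 was called in both sets, where no Ctrl embryo held a UMI and the fitted folds depend on the prior count. In addition, Sgce (3.41), Sfmbt2 (1.56), Plagl1, Meg3 (-3.83) and Grb10 (-2.37) were called in 1 set each, the first 2 in set 1 and the others in set 2. The set 2 Ctrl embryos held no UMI of Plagl1, so its fitted fold there also depends on the prior count. Zrsr1 was called in neither (-1.25 and -1.46). All 7 members kept their direction in both sets. In the Sox2 line Sfmbt2 was called in both sets (1.08 and 1.04) and Plagl1 in set 2 (2.79, and 1.496 with adjusted p = 0.454 in set 1), beside 3.32% of genes in set 1 and 4.91% in set 2.

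In morulae no member was called in either line. In Oct4-KO morulae 0 of 25 members were called by edgeR, DESeq2 and limma, where edgeR called 0.804% of all genes. An unadjusted p under 0.05 was seen for 6 members, beside 1707 of all 14053 genes. Snrpn and Igf2r passed the adjusted p there with the values given above. In Sox2-KO morulae 0 members were called by edgeR, DESeq2 and limma, where edgeR called 0.00712% of all genes. Usp29, with 19 UMIs against 55 in Ctrl (log2 fold change -1.43 ± 0.49), was the 1 member at an unadjusted p under 0.05. Of all 14053 genes, 618 met that threshold.

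The difference between the Oct4-KO and Sox2-KO effects was tested directly. In early ICMs edgeR and DESeq2 called 0 members, and limma on the rlog values called 1 (Mest), beside 5.52% of all genes in edgeR. An unadjusted p under 0.05 was seen for 6 members, beside 3029 of all 14053 genes. In late ICMs 2 members, Meg3 and Gnas, were called, beside 6.3% of all genes. For Usp29 the late difference between the lines missed the threshold (adjusted p = 0.0636), and its fitted size depends on the prior count because the Oct4 Ctrl embryos held no UMI. Between late and early ICMs the Oct4-KO effect differed for 2 members, Grb10 and Sfmbt2, beside 3.11% of all genes. For the Sox2-KO effect edgeR, DESeq2 and limma called 0 members, and edgeR called 0.0427% of all genes. There 7 members had an unadjusted p under 0.05, beside 1494 of all 14053 genes.

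The other 9 members did not pass the filter and are described by their UMIs. H19, the maternally expressed non-coding RNA beside Igf2, had 190 UMIs in late Oct4-KO ICMs and 6 in Ctrl. Of these, replicate 1-2 held 151 UMIs (236 CPM) and replicate 2-5 held 36 (52.2 CPM), the other six KO embryos had at most 2.53 CPM, and 4 of them had none. The ratio was 28.2, with a counting interval of 12.7 to 77.8 that leaves out the spread between embryos. The trophectoderm markers summed to 2799 and 2130 CPM in these 2 embryos and to 1509 to 3160 CPM in the other six. In late Sox2-KO ICMs H19 had 17 UMIs in 3 embryos, at 4.65, 8.56 and 9.9 CPM, against 1 in Ctrl, a ratio of 18.1 (2.83 to 755). In early Sox2 ICMs the counts were 0 in KO and 8 in Ctrl, where replicate 11 held 6 UMIs, replicate 9 held 2 and the other six embryos none. Igf2 had 1 UMI over the embryos of every group together.

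Airn, the non-coding RNA that runs antisense through Igf2r, had 13 UMIs in late Oct4-KO ICMs and 3 in Ctrl, a ratio of 3.86 (1.06 to 21.1), and 27 over all embryos. Slc22a18, a transporter gene beside Phlda2, had 39 UMIs in all, of which the Sox2 ICM groups held 4 to 8 each and all morula groups together 1. Nnat, within Blcap, had 26 UMIs, Ndn 14, Dlk1 9, Nap1l5, within Herc3, 5 and Peg12 4. Each group in a KO comparison held at most 6 UMIs of any of these 5 genes, and no KO effect on them was detectable, with 1 inside every counting interval of the ratios. Whether the counting used the strand is not stated, so reads of nested genes on opposite strands may not be told apart.

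**Figure D3:**
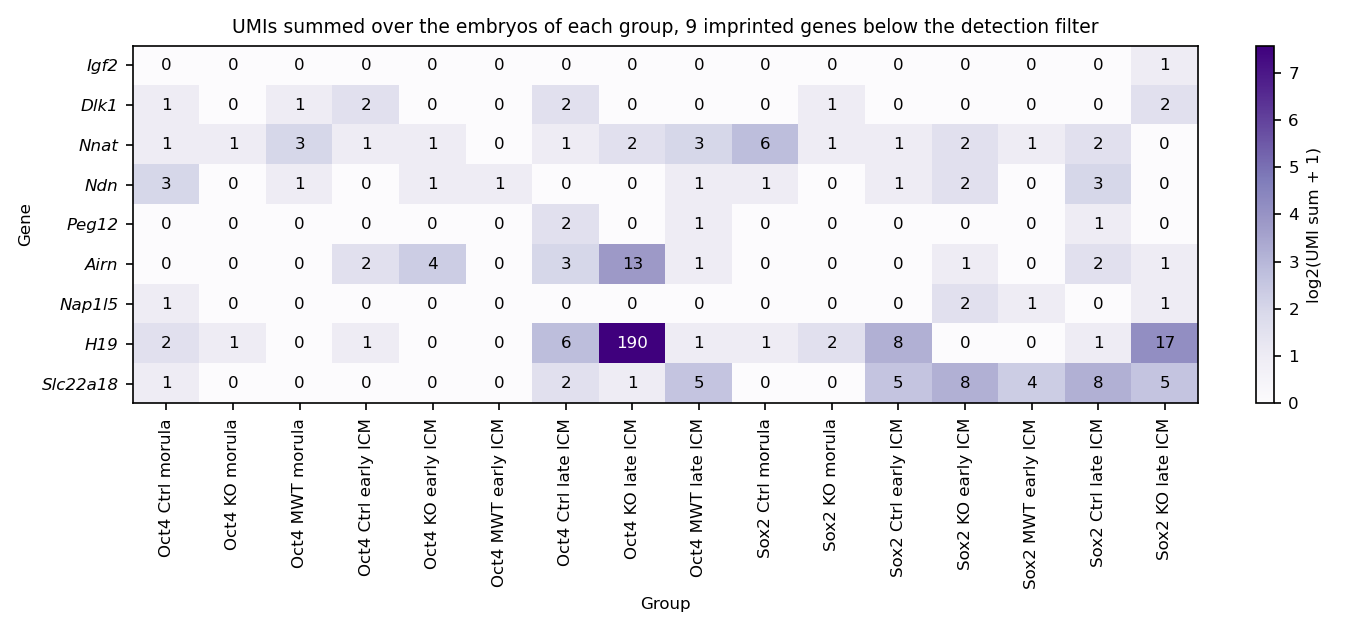
UMIs summed over the embryos of each group for the 9 imprinted genes below the detection filter, with the groups on the horizontal axis, the sum printed in each cell and the colour on a log2(sum + 1) scale. The H19 cell of the Oct4-KO late ICM, at 190, stands out, and its UMIs come mostly from 2 embryos.

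Among genes that protect or set imprints, 4 were called in at least 1 KO comparison of ICMs (Zfp57, Uhrf1, Ezh2 and Dppa3), and the other 11 in none (Zfp445, Trim28, Setdb1, Dnmt1, Ctcf, Smchd1, Eed, Suz12, Dnmt3l, Arid4a and Arid4b). Of the 15, all of them tested, 3 were called lower in early and 4 in late Oct4-KO ICMs, beside 6.11% and 8.85% of all genes. In Sox2-KO ICMs 0 were called lower at the early and 2 at the late stage, beside 1.69% and 3.61%, and none of the 15 was called higher in these comparisons. Zfp57 was at 0, 0 and 3.55 CPM in early Oct4-KO ICMs (4 UMIs) against 4.86, 8.43 and 13.9 CPM in Ctrl (63 UMIs), with no overlap (log2 fold change -3.64 ± 0.55, adjusted p = 1.72e-07). In late ICMs 2 UMIs against 150 gave a ratio of 0.0119, with a counting interval of 0.00142 to 0.0436. In late Sox2-KO ICMs Zfp57 changed by -0.97 ± 0.33 (adjusted p = 0.0383, under the fold minimum), and the late effects in the lines differed by -4.84 ± 0.71 (adjusted p = 2.75e-07). Uhrf1, which brings the maintenance methyltransferase to replicated DNA, was at 2.22 to 15.4 CPM in early Oct4-KO ICMs against 43.8 to 112 CPM in Ctrl (-3.10 ± 0.33, adjusted p = 1.66e-12), and it was lower in late Oct4-KO (-1.64) and late Sox2-KO ICMs (-1.09). Ezh2, the Polycomb methyltransferase, was called lower in early and late Oct4-KO (-1.09 and -1.17) and late Sox2-KO ICMs (-1.09). Dppa3, which guards maternal methylation in the zygote, was called in late Oct4-KO ICMs (-1.01 ± 0.17, adjusted p = 4.82e-07). Of 15 neighbours of imprinted clusters, 11 were tested, and Mirg was the only one called in a KO comparison of ICMs, lower in both Oct4-KO stages, with the same shares of all genes.

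Markers of other cell types were also called in these comparisons. The shares of all genes called higher and lower were 4.77% and 6.11% in early and 9.25% and 8.85% in late Oct4-KO ICMs, and 1.57% and 1.69% in early and 3.34% and 3.61% in late Sox2-KO ICMs. Over the 10 trophectoderm markers (Cdx2, Gata3, Eomes, Krt8, Krt18, Tfap2c, Elf5, Hand1, Tead4 and Krt7) the summed level in late ICMs of the Oct4 line was 1509 to 3160 CPM in KO and 277 to 1087 CPM in Ctrl, with 8 called higher and none at 0. The sums in early ICMs of the Oct4 line were 942 to 1519 CPM and 450 to 1370 CPM, with 3 called higher and 1 lower. Those of the Sox2 line were 542 to 2078 CPM and 189 to 662 CPM in early ICMs (4 higher, 1 lower) and 668 to 1831 CPM and 263 to 2868 CPM in late ones (3 higher). Epiblast markers summed to 1710 to 2229 CPM in early and 691 to 1392 CPM in late Oct4-KO ICMs, below all Ctrl embryos, with 8 and 9 of 10 called lower. In Sox2-KO ICMs 5 of these 10 were called lower at each stage. Of 10 primitive endoderm markers, 8 were tested, and 2 were called higher and 5 lower in late Oct4-KO ICMs, where the sums were 886 to 1605 CPM against 283 to 1494 CPM in Ctrl. The early values were 795 to 1305 CPM against 583 to 922 CPM (1 higher, 2 lower), with Foxa2 at 0 in both groups and Sox7 at 0 in the KO. In the Sox2 line 1 was called higher in early ICMs (559 to 899 against 215 to 888 CPM, with Foxa2 at 0 in both groups) and 2 lower in late ones (550 to 1314 against 384 to 2042 CPM, none at 0). The part of these markers in the changes of Plagl1, Sgce, Usp29, Sfmbt2, Mest, Grb10, Meg3, Zrsr1 and H19 was not tested, and fewer cells of a type and less RNA per cell cannot be told apart in whole ICMs.

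Between morula and early ICM the members moved in both directions. In Ctrl embryos of the Oct4 line 5 members were called higher in early ICMs and 4 lower, beside 14.1% and 14.9% of all genes. Those of the Sox2 line had 6 called higher and 5 lower, beside 17.2% and 14.7% of all genes. Meg3 went from 0, 1.55 and 9.27 CPM in Oct4 Ctrl morulae to 12.7, 38.2 and 78.2 CPM in early ICMs (4.02 ± 0.71, adjusted p = 1.22e-06), and from 0, 0.835 and 8.21 CPM to 33.2, 125 and 205 CPM in the Sox2 line (6.21 ± 0.69, adjusted p = 5.35e-13). Every early ICM lay above every morula in both lines. Jade1 rose from 41.7, 47.9 and 65.2 CPM to a median of 197 and a highest value of 255 CPM in the Oct4 line, where the early ICMs again lay above all morulae (1.87 ± 0.19, adjusted p = 4.85e-14), and by 2.18 ± 0.20 in the Sox2 line. Sfmbt2 rose by 1.65 ± 0.30 and 2.69 ± 0.32, and Zdbf2, a zinc finger gene, by 1.21 ± 0.45 and 1.58 ± 0.47. Zrsr1 was called higher in the Oct4 line (1.32 ± 0.30) and had a value of 0.93 in the Sox2 line. Rian (2.28 ± 0.49) and Grb10 (1.77 ± 0.76, adjusted p = 0.0451) were called higher in the Sox2 line and had values of 0.80 and -0.55 in the Oct4 line, and whether the lines differed was not tested. The Grb10 call was lost with no filter on low counts (adjusted p = 0.0539), after thinning (1.05, adjusted p = 0.275) and with limma (0.62, adjusted p = 0.0938).

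Usp29 fell to 1 UMI in the early ICMs of each Ctrl group, from 43 UMIs in Oct4 and 55 in Sox2 Ctrl morulae. The ratios were 0.0269 (counting interval 0.000665 to 0.158) and 0.0216 (0.000538 to 0.126). Oct4-KO morulae had 1.11, 5.37 and 7.76 CPM of Usp29, a range that overlapped that of the early Oct4-KO ICMs given above. Sgce fell by 2.68 (-2.68 ± 0.53) and 2.79 (-2.79 ± 0.61) on the log2 scale, and Phlda2 by 2.78 (-2.78 ± 0.68) and 1.39 (-1.39 ± 0.53). Gnas was called lower in the Oct4 line (-1.15 ± 0.17) and had a value of -0.87 in the Sox2 line. Inpp5f, an inositol phosphatase gene (-1.20 ± 0.38), and Peg3 (-1.67 ± 0.63, and -0.93 with adjusted p = 0.335 after thinning) were called lower in the Sox2 line. Plagl1 was called in neither line at this step (1.15 ± 0.78 and 0.51 ± 0.99).

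**Figure D4:**
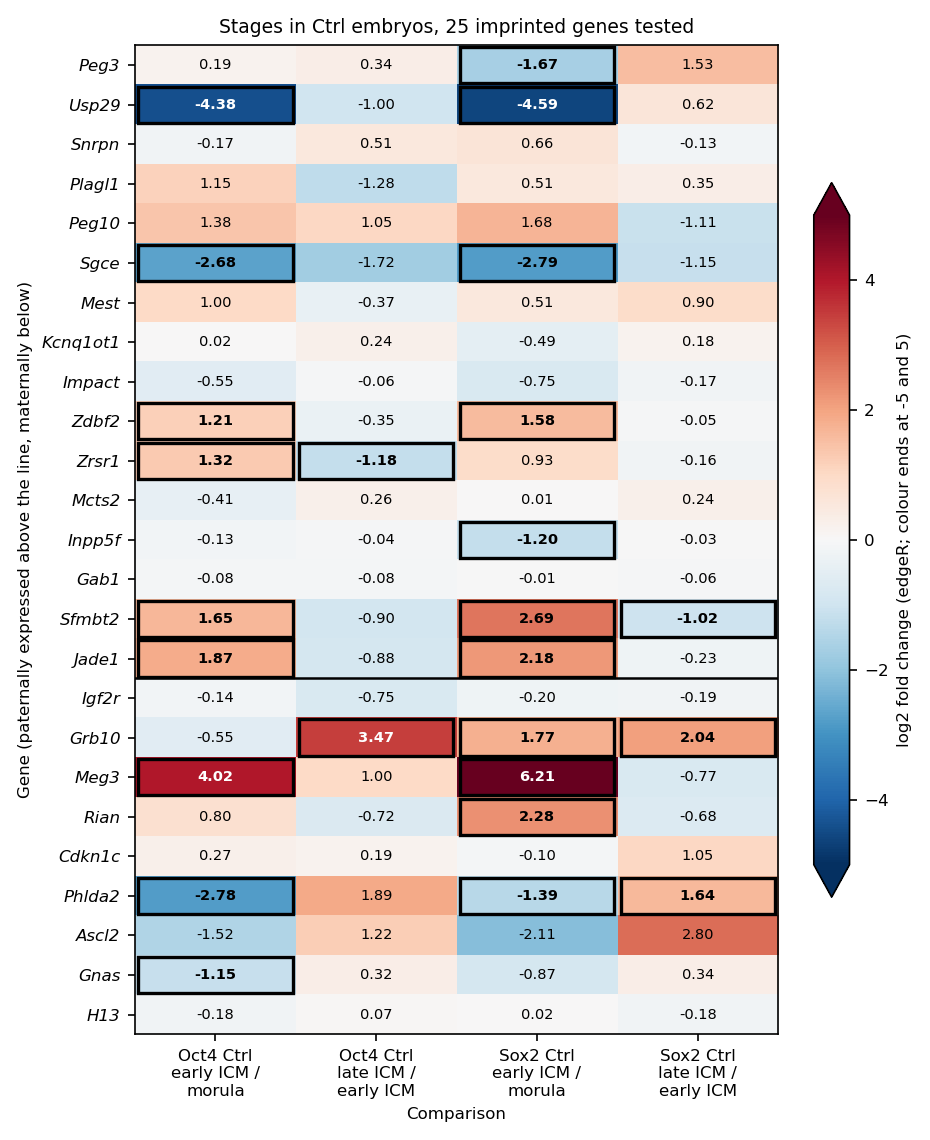
Log2 fold changes (edgeR) between stages in Ctrl embryos for the 25 imprinted genes tested, with 1 column per line and step, 8 embryos in each group and black frames around called genes. Meg3 (4.02 and 6.21) and Usp29 (-4.38 and -4.59) mark the ends of the scale in both lines between morula and early ICM.

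Between early and late ICMs fewer members changed. In the Oct4 line 1 was called higher and 1 lower, beside 9.52% and 6.04% of all genes, and in the Sox2 line 2 were higher and 1 lower, beside 1.94% and 0.961%. Grb10 was called higher in both lines, from 0, 1.16 and 2.34 CPM to 0, 8.72 and 32.1 CPM in the Oct4 line (3.47 ± 0.78, adjusted p = 0.000198), and from 0.951, 3.28 and 14.4 CPM to 2.39, 18.5 and 33.6 CPM in the Sox2 line (2.04 ± 0.58, adjusted p = 0.0163). Zrsr1 was called lower in the Oct4 line (-1.18 ± 0.32, adjusted p = 0.00199). Phlda2 rose in the Sox2 line, from a range of 1.18 to 3.87 CPM to a range of 3.23 to 16.5 CPM. Its log2 fold change was 1.64 ± 0.53 (adjusted p = 0.0382, and 0.0552 with the MWT embryos added to the fit). The Phlda2 call in the Sox2 line was lost in 3 of the 8 alternatives run. Sfmbt2 was called lower there (-1.02 ± 0.28, adjusted p = 0.0131), at the edge of the fold minimum, and the call was lost in 6 of the 8 alternatives run, with values from -0.99 to -0.81. Without Oct4 Ctrl late ICM replicate 1-4, 4 members were called in the Oct4 line, with Phlda2 (1.96) and Jade1 (-1.03) added.

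Ctrl embryos, which lacked the maternal gene, were also compared with MWT embryos, with 23 members tested among 13923 genes. In Oct4 morulae, early and late ICMs edgeR, DESeq2 and limma each called 0 members, beside 0.0646%, 0.373% and 0.797% of all genes in edgeR. An unadjusted p under 0.05 was seen for 2, 5 and 3 members in the same order, beside 1005, 1326 and 1939 of all genes. In Sox2 early ICMs 1 member was called, beside 2.58% of all genes. That member, Jade1, was at 120, 134 and 197 CPM in Ctrl and at 42.9, 65.6 and 91.8 CPM in MWT embryos, with all 8 Ctrl embryos above every MWT embryo (1.19 ± 0.20, adjusted p = 2.06e-05). Primitive endoderm markers summed to 215 to 888 CPM in these Ctrl and 975 to 1467 CPM in these MWT embryos, without overlap, with 1 of 8 tested called lower and none higher. The trophectoderm sums were 189 to 662 and 398 to 1202 CPM (1 lower), and the epiblast sums 2325 to 4741 and 1969 to 3105 CPM (2 higher). In Oct4 late ICMs the primitive endoderm sums were 283 to 1494 CPM in Ctrl and 113 to 451 CPM in MWT embryos, with 5 of 8 markers called higher in Ctrl. The part of these markers in the Ctrl and MWT differences was not tested. In Oct4 early ICMs Jade1 was also higher in Ctrl, at 196 against 120 CPM, but did not pass the test (0.73 ± 0.21, adjusted p = 0.0792). Meg3 was at 42.2 ± 23.8 CPM in Oct4 Ctrl and 110 ± 52.2 CPM in Oct4 MWT early ICMs (-1.35 ± 0.52, adjusted p = 0.286). MWT embryos had 0 to 4 UMIs of Usp29 in each ICM group.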

How the data were processed

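The deposited table held UMI counts per gene and embryo. Per the labels and the study's methods, the authors used UMI-tools, cutadapt, TopHat2 with Bowtie2 and featureCounts on mm10 with GENCODE annotation and corrected UMI counts for loss with TRUmiCount. A second table deposited by the authors held log2 values from the rlog of DESeq2, used here only as an alternative. Genes with a UMI in at least a share of 0.5 of the embryos of some stage were kept. Counts were fitted with the quasi-likelihood test of edgeR 4.0.16 (R 4.3.3, TMM scaling) over all 96 Ctrl and KO embryos, or over these and the MWT embryos. A gene was called at a Benjamini-Hochberg adjusted p under 0.05 over all genes with a log2 fold change of 1 or more in either direction. Errors of fold changes are standard errors derived from the F statistic. Levels are CPM without TMM, and counting intervals are exact (95%) and cover counting error only. Each embryo was 1 replicate. Litters are not given, so p-values measure the spread between embryos. DESeq2 1.42.0 and limma 3.58.1 were alternatives. The edgeR test was also run on counts simulated from the Oct4 KO and Ctrl early ICMs alone. Only genes with higher counts were changed there, so the simulation does not bear on calls of genes with few UMIs. It is not used as support for any call. Every member is named. Called members and those with a group mean of at least 50 CPM are given with values, and those below the filter by UMI sums. The members and the 7 gene lists were chosen with earlier results of these data known.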

Additional observations from a re-analysis of the deposited data

Results flagged for a closer look

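Embryos were flagged by the gap to their nearest neighbour, with a cutoff whose nominal rate is about 1 in 20 for normally distributed values. That rate was not measured for low UMI levels. Of 253 combinations of a member and a group with a mean of at least 5 CPM, 30 held a flagged embryo. In the comparisons above this concerned H19 in Oct4-KO late ICM replicate 1-2 (236 CPM), Meg3 in Oct4-KO early ICM replicate 5 (59.1 CPM), Grb10 in Sox2-KO late ICM replicate 2-6 (33.1 CPM), Rian in Sox2-KO early ICM replicate 8 (14.2 CPM), Jade1 in Sox2-KO early ICM replicate 11 (194 CPM) and Gnas in Oct4-KO morula replicate 4 (259 CPM). H13 stood out in Oct4-KO late ICM replicate 2-5 (123.2 CPM) and Gab1 in Oct4-KO late ICM replicate 2-2 (87.1 CPM). Mcts2 stood out in Sox2-KO morula replicate 9 (51.4 CPM).

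Among Ctrl embryos the values set apart were Zrsr1 in Oct4 late ICM replicate 1-4 (16.7 CPM), H13 and Mcts2 in Oct4 early ICM replicates 3 and 2 (69.3 and 43.3 CPM), Inpp5f in Oct4 late ICM replicate 2-1 (24.7 CPM), Sfmbt2 in Oct4 morula replicate 18 (40.2 CPM), Kcnq1ot1 and Mcts2 in Sox2 early ICM replicates 9 and 2 (14.4 and 69.5 CPM) and Impact in Sox2 late ICM replicate 2-3 (52.9 CPM). In Sox2 Ctrl morula replicate 12 no Sfmbt2 UMI was seen (0 CPM).

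In MWT embryos of the Oct4 line they were Usp29, Phlda2, Kcnq1ot1 and Gab1 in morulae (20.4, 31.7, 13.9 and 92.5 CPM in replicates 5, 3, 1 and 7), Mest in early ICM replicate 7 (12.9 CPM), and in late ICMs Grb10 (29.8 CPM, replicate 11), Phlda2 (21.2 CPM) and Gnas (503 CPM) in replicate 15, Mcts2 (55.6 CPM, replicate 10) and Sfmbt2 (6.91 CPM, replicate 14). In Sox2 MWT early ICMs they were Meg3 in replicate 2 (347 CPM) and Zrsr1 in replicate 9 (21.8 CPM).

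Effects that differed between lines or stages by the test of the difference itself were Meg3 (-2.98) and Gnas (1.01) between Oct4-KO and Sox2-KO effects in late ICMs, and Grb10 (-3.78) and Sfmbt2 (1.55) between late and early Oct4-KO ICMs, all as log2 differences.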

How the results depend on the processing

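No call among the 45 made by edgeR over members and comparisons reversed its direction under the alternatives run. DESeq2 kept 42 of them, RLE size factors 44, total UMIs without TMM 43, no filter on low counts 43 and thinning to the lowest total 40, and with the MWT embryos added to the fit 41 held and 3 were lost. Limma on the rlog values kept 23 and lost 22. The number of members called changed as follows. With the adjusted p alone it was 2 in Oct4-KO morulae, 8 in early and 10 in late Oct4-KO ICMs, 3 in early Sox2-KO ICMs, 15 between Sox2 Ctrl morula and early ICM, 6 between late and early Oct4 Ctrl ICMs and 3 for the late difference between the lines, beside 1.47%, 21%, 31.7%, 7.04%, 51.7%, 32.4% and 8.67% of all genes in the same order. For the other alternatives the counts that moved by over 1.5 times are given. With limma on rlog values it was 1 in early and 3 in late Oct4-KO ICMs, 1 in late Sox2-KO ICMs, 5 between Sox2 Ctrl morula and early ICM, 1 between late and early ICM in either Ctrl line, 1 for the difference between the lines in early ICMs and 1 for the late minus early Oct4-KO effect, where 1.12% (late against early Sox2 Ctrl ICMs) to 16.2% (Sox2 Ctrl early ICM against morula) of all genes were called. Thinning gave 1 in early Sox2-KO ICMs (2.59% of all genes) and 1 for the late minus early Oct4-KO effect (2.39%). Without TMM late Sox2-KO ICMs had 1 (7.17%). The fit with MWT embryos gave 1 for late against early Sox2 Ctrl ICMs (2.84% of all genes) and 1 for the late difference between the lines (6.44%).

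Embryo numbers shared between KO and Ctrl groups were not treated as pairs, since the labels do not say what they mark and no comparison had every same-number correlation over 0.1 in 3 or more pairs. As a hint from the data, 0 of 3 in Oct4 morulae, 1 of 2 in early and 1 of 1 in late Oct4 ICMs, 2 of 4 in early and 3 of 4 in late Sox2 ICMs correlated best with their own number. With the replicate block, in 4 embryos, early Oct4-KO ICMs had 2 calls (Usp29 and Plagl1) and lost Sgce and Meg3, beside 6.23% of all genes. Late Sox2-KO ICMs, in 8 embryos, kept Plagl1 and Sfmbt2 with the block (4.62% of all genes) and had 0 calls without it (2.32%). The shares with and without the block were 3.02% and 1.63% in early Sox2 ICMs, and 2.05% and 1.14% in Oct4 morulae. In early Oct4 ICMs the share without the block was 6.39%. The Mest call in early Sox2-KO ICMs was lost with the block and without it in the same embryos. No paired analysis was possible for late Oct4 ICMs and Sox2 morulae because they share fewer than 2 numbers. With the late label set as a block late Sox2-KO ICMs had 4 calls, adding Sgce and Cdkn1c, beside 6.4% of all genes. Within the sets, an alternative chosen after seeing the data like the left-out embryos below, the calls were 3 and 4 in the Oct4 line, and 1 in set 1 of the Sox2 line. Without Oct4 Ctrl late ICM replicate 1-4 the late against early count in the Oct4 line was 4 (15.9% of all genes), and without Sox2 Ctrl late ICM replicate 1-4 the late difference between the lines held 1 (6.4%). Leaving out each Oct4 Ctrl or MWT early ICM in turn gave 0 calls each time, where 0.165% to 0.51% of all genes were called. Causes of these changes were not tested. The fits within sets and pairs used fewer embryos, and rlog shrinks folds by construction, but the part of either was not tested. At 525755 UMIs or more per embryo, effects on Igf2, Nnat, Peg12, Nap1l5, Dlk1 and Ndn were not detectable.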

Other observations

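In 1 MWT early ICM of the Sox2 line (replicate 15) neither Meg3 nor Rian had a UMI, while Meg3 reached 347 CPM in replicate 2 of the same group. In late Sox2 Ctrl ICMs, replicates 1-4 and 1-10 had 3.53 and 2.22 CPM of Meg3 and 0 and 1.11 CPM of Rian, and the other Ctrl embryos had 30.3 to 164 CPM of Meg3. In late Oct4-KO ICMs the 2 embryos highest in Meg3 (replicates 1-5 and 1-2) had 1.4 and 3.12 CPM of Rian, the lowest and second lowest of the group. Ascl2 had 13 UMIs in Sox2-KO morulae and 4 in Ctrl, a ratio of 3.36 (counting interval 1.04 to 14.1), and 10 against 2 in Oct4-KO morulae.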
